A study of Mus musculus with 8 samples.

Results

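Expression of 10 small leucine-rich proteoglycan genes (Dcn, Bgn, Aspn, Fmod, Lum, Prelp, Kera, Omd, Ogn and Chad) was described across 4 stromal cell populations sorted from neonatal mouse bone. The genes were chosen by symbol as members of that family, and all 10 were among the 15880 genes measured, each with a single identifier. The cells came from heterozygous Nes-Gfp pups of the C57BL/6 strain on postnatal day 1. In these pups regulatory elements of the rat nestin gene drive the green fluorescent protein (GFP). Bones of 3 pups were pooled, crushed and digested with collagenase, and CD45, CD31 and Ter119 negative cells were sorted by GFP and by the surface receptor Pdgfra. The populations were GFP+ Pdgfra+, GFP- Pdgfra+, GFP+ Pdgfra- and GFP- Pdgfra-, each with 2 libraries of RNA from 15000 to 80000 cells. The libraries held 3564158 and 3329432 reads for GFP+ Pdgfra+, 3869275 and 3221217 for GFP- Pdgfra+, 3644103 and 3427644 for GFP+ Pdgfra-, and 4058258 and 5302762 for GFP- Pdgfra-. Levels are given as normalised reads per 1000000, with the mean ± SD of n = 2 libraries. A value of 3 reads, taken as the floor of detection, came to between 0.825 and 1.04 in these libraries. Such floors, and the counting interval given for Kera, cover counting error only.

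Small leucine-rich proteoglycans are secreted matrix proteins whose curved leucine-rich repeats bind collagen fibrils and set their diameter and spacing. Many carry chondroitin, dermatan or keratan sulfate chains, and several bind growth factors of the TGF-beta family or cell surface receptors. In the skeleton they are known from bone matrix, cartilage, tendon, ligament and periosteum, with a different mixture of members in each tissue.

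The sort was visible in its own marker. Pdgfra, the receptor used for sorting, stood at 733 and 754 in GFP+ Pdgfra+ cells, 839 and 794 in GFP- Pdgfra+, 18.1 and 10.4 in GFP+ Pdgfra-, and 3.30 and 4.36 in GFP- Pdgfra-. Nes, the endogenous mouse nestin gene, stood at 57.6 and 72.0, 27.4 and 47.1, 149 and 176, and 3.59 and 9.08 in the same order. The Pdgfra+ libraries were thus separate from the Pdgfra- libraries for Pdgfra, while Nes was higher with GFP in each pair of populations, without overlap. Within Pdgfra+ cells the Nes difference did not pass the test (log2 0.82, limma adjusted p = 0.213).

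The Pdgfra- populations carried markers of other cell types. Summed over 5 erythroid genes, the GFP- Pdgfra- libraries reached 3449 and 4144, led by the red cell anion exchanger Slc4a1 (2698), against 43.6 or less in any other library, although Ter119 positive cells had been gated out. The GFP+ Pdgfra- libraries held the highest sums of 5 pericyte and smooth muscle markers (1741 and 2259.6, led by Rgs5), 5 skeletal muscle lineage markers (726 and 759, led by Pax7) and 6 Schwann cell lineage markers (357 and 326, led by Erbb3). Sums of 7 fibroblast and mesenchymal progenitor markers were 1457 and 1458 in GFP+ Pdgfra+, 1851 and 1583 in GFP- Pdgfra+, 337 and 381 in GFP+ Pdgfra-, and 19.1 and 25.4 in GFP- Pdgfra- cells. That list includes the sorted receptor Pdgfra, and without it the sums of 6 genes were 724 and 704, 1012 and 789, 319 and 371, and 15.8 and 21.0. For 5 endothelial markers the library sums ran from 30.6 to 113, and for 5 white blood cell markers from 3.45 to 47.8. In bulk RNA such as this, fewer cells of a type and less RNA per cell cannot be told apart. The part of these cell types in the results on the proteoglycans was not tested.

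As a family, the proteoglycans were messages of the Pdgfra+ cells. The summed level of the 10 genes was 6249.6 and 6579 in GFP+ Pdgfra+ cells (6414 ± 233), 10529 and 10182 in GFP- Pdgfra+ (10356 ± 246), 682 and 647 in GFP+ Pdgfra- (664 ± 24.6), and 197 and 324 in GFP- Pdgfra- (261 ± 89.4). No libraries of different populations overlapped, and the sums ran, from high to low, in the order GFP- Pdgfra+, GFP+ Pdgfra+, GFP+ Pdgfra-, GFP- Pdgfra-. The genes took 1.07 ± 0.0107 percent of all reads in GFP- Pdgfra+ cells and 0.661 ± 0.0371 percent in GFP+ Pdgfra+ cells. Set against type I collagen, the main fibril protein of bone and tendon, the family was scarcest in GFP+ Pdgfra+ cells. For every 100 normalised reads of Col1a1 and Col1a2 together there were 8.86 ± 2.06 of the proteoglycans there, 37.7 ± 1.31 in GFP- Pdgfra+, 13.5 ± 1.29 in GFP+ Pdgfra-, and 30.5 ± 5.21 in GFP- Pdgfra- cells.

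The mixture of members also differed between populations. Per kilobase of transcript, Bgn was the most abundant of the 10 in each population and made up 38.7% of the family sum in GFP+ Pdgfra+, 35.0% in GFP- Pdgfra+, 52.5% in GFP+ Pdgfra- and 32.0% in GFP- Pdgfra- cells. Dcn came next in both Pdgfra+ populations, at 29.0% and 19.2% per kilobase, and Aspn after it at 12.6% and 16.8%. Lum held the fourth place in GFP+ Pdgfra+ cells with 8.59% of the sum per kilobase, while Ogn (8.42%) and Fmod (8.05%), whose levels did not differ beyond their spread, stood there in GFP- Pdgfra+ cells. In GFP+ Pdgfra- cells Ogn was second, with 17.7%. In GFP- Pdgfra- cells Chad (16.3%) and Fmod (11.8%) stood with Dcn (12.2%) behind Bgn, at levels whose spreads overlapped.

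**Figure D1:**
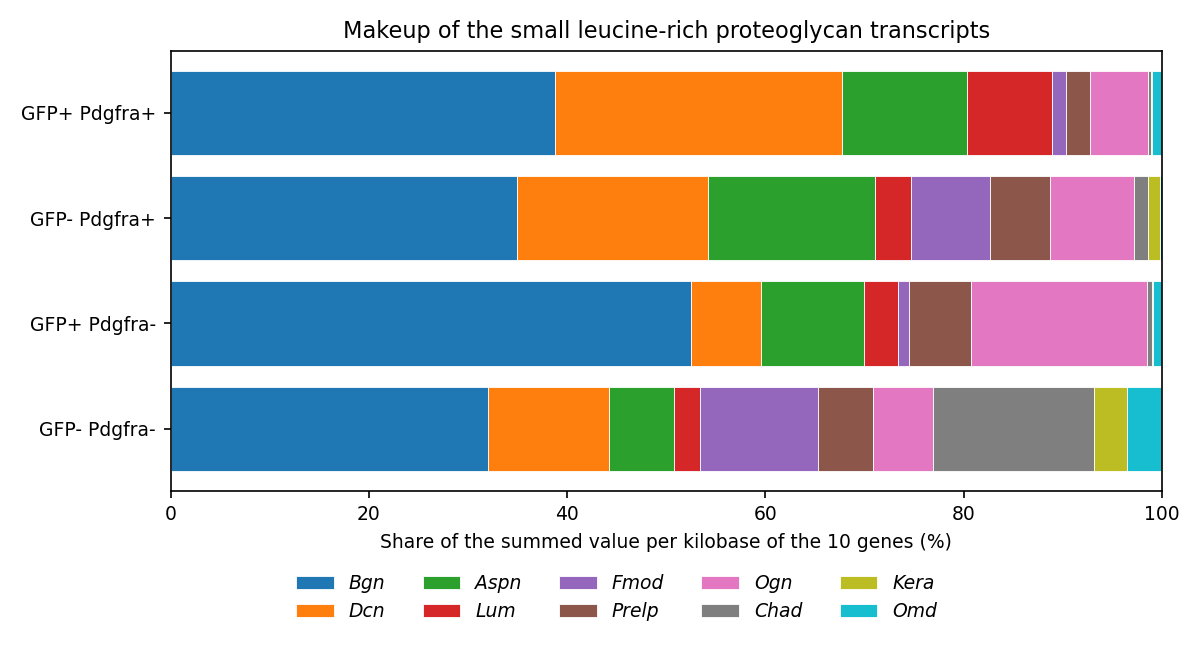
Share of each of the 10 proteoglycan genes in their summed level per kilobase of transcript (stacked bars, percent, mean of 2 libraries) in the 4 sorted populations. Bgn is the largest share of each bar, from 32.0% in GFP- Pdgfra- to 52.5% in GFP+ Pdgfra- cells, and Fmod takes 1.40% in GFP+ Pdgfra+ against 8.05% in GFP- Pdgfra+ cells.

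Between the Pdgfra+ populations, 7 of the 10 genes differed: Omd was higher with GFP, and Aspn, Fmod, Prelp, Kera, Ogn and Chad were lower. A gene was called when its adjusted p from limma, corrected over the 15880 genes, was at most 0.05. The question in this comparison was how the stromal cells that express the nestin transgene differed from their GFP- counterparts with the same receptor. Of all genes, 849 were called (5.35%), 511 higher (3.22%) and 338 lower (2.13%) in GFP+ Pdgfra+ cells. The median log2 difference was -1.06 over the 10 genes and 0.0047 over all genes. The count of 7 became 4 when limma was run without its mean-variance trend, and ran from 3 to 8 when single libraries were left out, with 9 by voom. It was 3 without GFP- Pdgfra+ replicate 1 and 4 without GFP- Pdgfra+ replicate 2 or GFP+ Pdgfra+ replicate 1.

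All 10 genes were higher with Pdgfra in each setting of GFP. For GFP+ Pdgfra+ over GFP+ Pdgfra- cells the median log2 difference was 3.08, against -0.02 over all genes, of which 3848 were called (24.2%), 2080 higher (13.1%) and 1768 lower (11.1%). For GFP- Pdgfra+ over GFP- Pdgfra- cells the 10 genes had a median of 5.39, against 0.17 over all genes, of which 9476 were called (59.7%), 5226 higher (32.9%) and 4250 lower (26.8%). In the Pdgfra- cells, GFP+ over GFP- gave 9 of 10 genes called, 6 higher and 3 lower, with a median of 0.96 against 0.15. There 8527 of all genes were called (53.7%), 4787 higher (30.1%) and 3740 lower (23.6%). These comparisons share populations with each other. Comparisons with GFP- Pdgfra- cells also depend on scaling: the median of all genes moved from 0.17 to -0.28 and from 0.15 to -0.30 when libraries were centred on their medians, and the log2 differences of the proteoglycans stand against those medians.

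**Figure D2:**
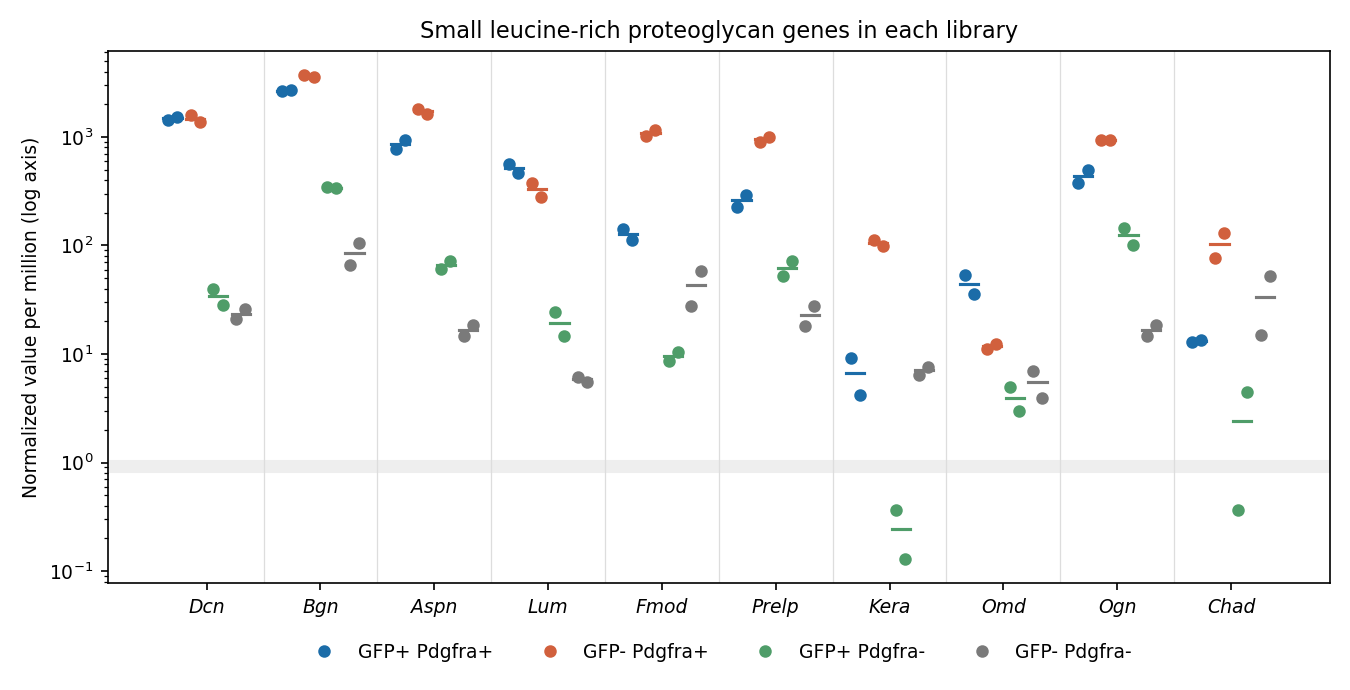
Levels of the 10 proteoglycan genes in normalised reads per 1000000 on a log axis, with a dot for each of 8 libraries, a bar at the mean of each population and a grey band for the value of 3 reads (0.825 to 1.04). Dcn lies together in both Pdgfra+ populations (1482 and 1477), Omd is highest in GFP+ Pdgfra+ (44.2) and Kera in GFP- Pdgfra+ cells (106).

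Decorin, biglycan and asporin form the first class of the family, with chondroitin or dermatan sulfate chains on Dcn and Bgn and none on Aspn. Dcn, which limits the lateral growth of collagen fibrils and binds TGF-beta, stood at 1423 and 1540.1 in GFP+ Pdgfra+, 1578 and 1375 in GFP- Pdgfra+, 39.9 and 28.4 in GFP+ Pdgfra-, and 21.1 and 25.8 in GFP- Pdgfra- cells. Its Pdgfra+ libraries overlapped with each other and lay far above the rest. Bgn, an X-linked gene whose product promotes bone formation, stood at 2666 and 2682, 3725 and 3533, 343 and 341, and 66.2 and 106 in the same order. Each population was separate for Bgn, with GFP- Pdgfra+ cells highest. Aspn, whose protein has a run of aspartate residues and binds collagen and calcium, stood at 776 and 939, 1803 and 1643, 61.3 and 71.6, and 14.8 and 18.5. Here too no populations overlapped.

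Dcn was 43.3-fold higher in GFP+ Pdgfra+ than in GFP+ Pdgfra- cells (log2 5.42, SE 0.17, limma adjusted p = 6.51e-09). In GFP- cells the Dcn fold with Pdgfra was 62.9 (log2 5.92, adjusted p = 1.01e-10). Between the Pdgfra+ populations Dcn showed no detected difference (log2 0.0072, SE 0.17, adjusted p = 0.993), and its sign turned under median centring (-0.021). Bgn was 1.36-fold higher in GFP- Pdgfra+ than in GFP+ Pdgfra+ cells and was not called (log2 -0.44, SE 0.17, adjusted p = 0.190). The Bgn difference was called without GFP- Pdgfra- replicate 1 (0.0177), without GFP- Pdgfra- replicate 2 (0.0176), without that population (0.0202) and by voom (0.00336). Under quantile normalization its sign turned, to a log2 difference of 0.021 (adjusted p = 0.968), and over 19 alternatives the adjusted p ran from 0.00336 to 0.968. Aspn was 2.01-fold higher in GFP- Pdgfra+ cells (log2 -1.01, SE 0.15, adjusted p = 0.00258). The Aspn call ended without GFP- Pdgfra+ replicate 1 (0.0534) and without the mean-variance trend (0.0614), with a range from 7.33e-09 to 0.0614. With Pdgfra, Aspn was 12.9-fold higher in GFP+ cells (log2 3.67, adjusted p = 5.43e-08) and 103-fold higher in GFP- cells (log2 6.62, adjusted p = 3.52e-11), and Bgn 7.82-fold (2.96, 4.99e-07) and 42.3-fold (5.42, 1.97e-10) higher.

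Among Pdgfra- cells the first class was higher with GFP. Bgn was 3.98-fold higher in GFP+ Pdgfra- than in GFP- Pdgfra- cells (log2 2.02, limma adjusted p = 1.08e-06) and Aspn 3.99-fold (log2 1.94, adjusted p = 5.29e-07). Dcn was 1.46-fold higher (log2 0.51, adjusted p = 0.0225). The Dcn call ended without GFP+ Pdgfra- replicate 1 (0.233) and without GFP- Pdgfra- replicate 1 (0.123), and also in the compared populations alone, without the trend, under quantile normalization, by voom and by edgeR. Its log2 difference was 0.06 under median centring, which ended the call too, with adjusted p from 0.00654 to 0.794 over the alternatives. The effect of GFP on Bgn and on Aspn thus ran in different directions in the Pdgfra+ and Pdgfra- cells, although for Bgn the difference in Pdgfra+ cells was not called. The test of that contrast, the log2 effect of GFP in Pdgfra+ cells minus that in Pdgfra- cells, gave -2.46 for Bgn (SE 0.24, adjusted p = 7.71e-06) and -2.95 for Aspn (SE 0.22, adjusted p = 6.74e-07).

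Fibromodulin, lumican, prolargin, keratocan and osteomodulin form the second class, whose members have tyrosine-rich or basic ends and, in several, keratan sulfate chains. Fmod, which binds type I collagen and is abundant in tendon and cartilage, stood at 140.4 and 113 in GFP+ Pdgfra+, 1019 and 1168 in GFP- Pdgfra+, 8.62 and 10.4 in GFP+ Pdgfra-, and 27.7 and 58.4 in GFP- Pdgfra- cells. Lum, its close relative and a regulator of fibril assembly, stood at 566 and 467, 379.6 and 279, 24.2 and 14.5, and 6.18 and 5.54 in the same order. The relatives had different peaks, Fmod in GFP- Pdgfra+ and Lum in GFP+ Pdgfra+ cells, with no overlap of the Pdgfra+ populations for either gene. Prelp, a basic protein that links collagen to heparan sulfate at basement membranes, stood at 227 and 293, 893 and 1008, 52.6 and 71.4, and 18.0 and 27.7. All 4 populations were separate for Prelp.

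Fmod was 8.62-fold higher in GFP- Pdgfra+ than in GFP+ Pdgfra+ cells (log2 -3.10, SE 0.27, limma adjusted p = 6.88e-05). Prelp was 3.66-fold higher there (log2 -1.88, SE 0.21, adjusted p = 0.000368). Both calls held in each of 19 alternatives. Lum was 1.57-fold higher in GFP+ Pdgfra+ cells and was not called (log2 0.66, SE 0.23, adjusted p = 0.140). Lum passed with replicate number as a block (0.0472), by voom (0.0128) and by DESeq2 (0.0378), in a range from 0.0128 to 0.576. With Pdgfra, Lum was 26.7-fold higher in GFP+ cells (log2 4.70, adjusted p = 1.53e-07) and 56.2-fold higher in GFP- cells (log2 5.58, adjusted p = 1.42e-09). For Fmod these folds were 13.3 (log2 3.60, adjusted p = 2.76e-06) and 25.4 (log2 4.73, adjusted p = 2.19e-08). Prelp was 4.19-fold higher in GFP+ cells (log2 2.06, adjusted p = 3.09e-05) and 41.6-fold higher in GFP- cells (log2 5.35, adjusted p = 1.08e-09).

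In the Pdgfra- cells these genes parted. Lum was 3.30-fold higher in GFP+ Pdgfra- than in GFP- Pdgfra- cells (log2 1.53, limma adjusted p = 0.000134), and Prelp was 2.71-fold higher (log2 1.42, adjusted p = 0.000128). Fmod was 4.52-fold higher in the GFP- Pdgfra- cells (log2 -1.98, adjusted p = 5.93e-05), where its libraries were 27.7 and 58.4. The effect of GFP differed between the Pdgfra settings most for Prelp (log2 -3.29, SE 0.30, adjusted p = 4.07e-06) and less for Fmod (-1.13, SE 0.38, 0.0314) and Lum (-0.87, SE 0.33, 0.0480). For Lum that call ended without any of 6 libraries: GFP+ Pdgfra+ replicate 1 (0.0633) and replicate 2 (0.158), GFP- Pdgfra+ replicate 1 (0.202), GFP+ Pdgfra- replicate 1 (0.199), and GFP- Pdgfra- replicate 1 (0.0522) and replicate 2 (0.0894). It also ended without the trend, under both other scalings and by voom, in a range from 0.0109 to 0.344. For Fmod it ended without GFP+ Pdgfra+ replicate 2 (0.111), GFP- Pdgfra+ replicate 1 (0.0689) and replicate 2 (0.121), GFP+ Pdgfra- replicate 1 (0.0611) and replicate 2 (0.122), and GFP- Pdgfra- replicate 1 (0.0719, log2 -0.60). The Fmod call ended as well under those alternatives, with a pseudocount of 0.1, by edgeR and by DESeq2, in a range from 0.000253 to 0.130.

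Kera and Omd, scarcer members of the second class, moved in opposite directions with GFP among Pdgfra+ cells. Kera, the keratan sulfate proteoglycan best known from the cornea and also found in tendon, stood at 9.25 and 4.17 in GFP+ Pdgfra+ (33 and 14 reads), 113 and 99.0 in GFP- Pdgfra+, and 6.46 and 7.66 in GFP- Pdgfra- cells (22 and 32 reads), with 1 and 0 reads in the GFP+ Pdgfra- libraries. Omd, an acidic protein of mineralised bone made by osteoblasts, stood at 52.9 and 35.5 in GFP+ Pdgfra+, 11.2 and 12.3 in GFP- Pdgfra+, 4.98 and 2.96 in GFP+ Pdgfra-, and 7.04 and 3.89 in GFP- Pdgfra- cells. For Kera the GFP- Pdgfra+ libraries stood alone at the top, and for Omd the GFP+ Pdgfra+ libraries did.

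Kera was 15.8-fold higher in GFP- Pdgfra+ than in GFP+ Pdgfra+ cells (log2 -3.88, SE 0.38, limma adjusted p = 0.000145), and 15.0-fold higher than in GFP- Pdgfra- cells (log2 3.73, adjusted p = 3.36e-06). Against the 1 read of GFP+ Pdgfra- cells, Kera was called in GFP+ Pdgfra+ cells (log2 2.55, adjusted p = 0.000438), with a ratio of 53.0 between summed reads (47 against 1) scaled by effective library size, and an exact Clopper-Pearson 95% interval from 9.06 to 2137. The same scaled ratio for GFP- Pdgfra- cells (54 reads against 1) was 56.0, with an interval from 9.63 to 2252. In the fit the difference was log2 -2.70 for GFP+ over GFP- (limma adjusted p = 7.00e-05). Both log2 differences against GFP+ Pdgfra- cells are of value + 1, which makes them smaller than the ratios at such counts. Omd was 3.75-fold higher in GFP+ Pdgfra+ than in GFP- Pdgfra+ cells (log2 1.80, SE 0.36, adjusted p = 0.0134). The Omd call ended without GFP+ Pdgfra+ replicate 1 (0.123), GFP- Pdgfra+ replicate 1 (0.121) or GFP- Pdgfra+ replicate 2 (0.0977), in a range from 0.00117 to 0.123.

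With Pdgfra, Omd was 11.1-fold higher in GFP+ cells (log2 3.19, limma adjusted p = 5.96e-05) and 2.15-fold higher in GFP- cells (log2 1.03, adjusted p = 0.0281). The call in GFP- cells ended without GFP- Pdgfra+ replicate 1 (0.0790), GFP- Pdgfra+ replicate 2 (0.117) or GFP- Pdgfra- replicate 2 (0.190), and under quantile normalization (0.270), median centring (0.198) and DESeq2 (0.0553), in a range from 0.0147 to 0.270. In the Pdgfra- cells the Omd libraries overlapped and no difference was called (log2 -0.37, adjusted p = 0.423), although quantile normalization called it lower with GFP (-0.99, 0.0381, in a range from 0.0381 to 0.993). The effect of GFP on Omd was larger in Pdgfra+ cells (difference of log2 effects 2.16, SE 0.51, adjusted p = 0.00467). For Kera that difference was -1.18 (SE 0.53, limma adjusted p = 0.0935) and was not called, with -1.67 without GFP+ Pdgfra+ replicate 1. Its sign turned under 4 alternatives, to 0.39 with a pseudocount of 0.1, 0.94 by voom, 1.54 by edgeR and 1.84 by DESeq2, none of them called. With 1 and 0 reads in the GFP+ Pdgfra- libraries, the direction of the Kera difference was not settled.

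Ogn (osteoglycin, also called mimecan), a third-class member with a shorter repeat region, stood at 377 and 491 in GFP+ Pdgfra+, 929.7 and 935 in GFP- Pdgfra+, 146 and 102 in GFP+ Pdgfra-, and 14.8 and 18.5 in GFP- Pdgfra- cells. The 51 and 78 reads in the last population were the same counts as those of Aspn. No populations overlapped for Ogn, and GFP- Pdgfra+ cells were highest. Chad, the fourth-class member chondroadherin, a cartilage protein without sulfate chains that binds an integrin, stood at 12.8 and 13.4, 77.3 and 129.9, 0.364 and 4.50 (1 and 17 reads), and 15.1 and 52.2 in the same order. For Chad both GFP- populations lay above both GFP+ populations, and replicates were far apart except in GFP+ Pdgfra+ cells.

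Ogn was 2.15-fold higher in GFP- Pdgfra+ than in GFP+ Pdgfra+ cells (log2 -1.11, SE 0.19, limma adjusted p = 0.00499). The Ogn call ended without GFP+ Pdgfra+ replicate 1 (0.0675), GFP- Pdgfra+ replicate 1 (0.0648) or GFP- Pdgfra+ replicate 2 (0.0720), and without the mean-variance trend (0.0734), in a range from 7.68e-07 to 0.0734. In Pdgfra- cells Ogn was 7.45-fold higher with GFP (log2 2.81, adjusted p = 1.36e-07). With Pdgfra it was 3.50-fold higher in GFP+ cells (log2 1.81, adjusted p = 3.11e-05) and 56.0-fold higher in GFP- cells (log2 5.73, adjusted p = 2.34e-10). Ogn showed the largest difference between the GFP effects of the 10 genes (log2 -3.92, SE 0.27, adjusted p = 3.70e-07). Without the libraries of replicate number 1 that difference was -3.33 and without those of number 2 it was -4.52, with no test in either.

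Chad was 7.91-fold higher in GFP- Pdgfra+ than in GFP+ Pdgfra+ cells (log2 -2.84, SE 0.61, limma adjusted p = 0.0189). The Chad call ended without GFP+ Pdgfra+ replicate 1 (0.114) or replicate 2 (0.0989) and without GFP- Pdgfra+ replicate 1 (0.0944) or replicate 2 (0.198), and also without the trend, with a pseudocount of 0.1 and by DESeq2, in a range from 0.00157 to 0.198. In the Pdgfra- cells Chad was 13.8-fold higher without GFP (log2 -3.42, adjusted p = 0.000497). That call held in 18 alternatives (1.72e-05 to 0.0124), with log2 -2.41 and -4.42 without GFP+ Pdgfra- replicate 1 and replicate 2, and -4.28 and -2.55 without GFP- Pdgfra- replicate 1 and replicate 2. No difference between the GFP effects was called for Chad (log2 0.57, SE 0.87, adjusted p = 0.628).

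With Pdgfra, Chad was 5.39-fold higher in GFP+ cells (log2 2.36, limma adjusted p = 0.0150) and 3.08-fold higher in GFP- cells (log2 1.79, adjusted p = 0.0242). The first call ended without GFP+ Pdgfra+ replicate 1 (0.0707) or replicate 2 (0.0812) and without GFP+ Pdgfra- replicate 1 (log2 1.36, 0.183), and the log2 difference was 3.37 without GFP+ Pdgfra- replicate 2 (0.00678). It also ended without the trend, by voom and by DESeq2, in a range from 0.00115 to 0.183. The second ended without GFP- Pdgfra+ replicate 2 (0.177) or GFP- Pdgfra- replicate 1 (log2 0.93, 0.235), and the log2 difference was 2.65 without GFP- Pdgfra- replicate 2 (0.00390). It also ended without the trend, under median centring, with a pseudocount of 0.1 and by DESeq2, in a range from 0.00208 to 0.248.

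Over the family, the difference between the GFP effects in Pdgfra+ and Pdgfra- cells was called for 7 of the 10 genes, 1 higher (Omd) and 6 lower (Bgn, Aspn, Lum, Fmod, Prelp and Ogn). Of all genes, 7031 were called (44.3%), 3032 higher (19.1%) and 3999 lower (25.2%). The median was -1.15 over the 10 genes and -0.16 over all genes, and the latter moved to 0.27 under median centring. Dcn was not called (log2 -0.50, SE 0.24, limma adjusted p = 0.108) except without GFP+ Pdgfra- replicate 2 (0.0275, in a range from 0.0275 to 0.810).

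Markers of tendon, cartilage and bone also differed between the Pdgfra+ populations. All 4 tendon and ligament markers fell with GFP among Pdgfra+ cells, where 2.13% of all genes fell and 3.22% rose, with library sums of 505 and 548 in GFP+ Pdgfra+, 2722 and 2639 in GFP- Pdgfra+, 17.0 and 15.7 in GFP+ Pdgfra-, and 68.6 and 75.7 in GFP- Pdgfra- cells. Thbs4, a matrix protein of tendon, was the most abundant of them in each population, and the tendon factor Scx had at most 3 reads in any GFP+ Pdgfra+ or GFP- Pdgfra- library. Of 7 cartilage markers 4 fell with GFP (Acan, Col9a1, Hapln1 and Lect1), with sums of 134 and 127, 356 and 595, 60.6 and 52.9, and 187 and 234 in the same order. Acan, the large cartilage proteoglycan, led them except in GFP+ Pdgfra- cells, where the factor Sox9 did, and Matn1 was at the floor in all but GFP- Pdgfra- cells. All 6 osteoblast markers rose with GFP, with sums of 9570.3 and 6343, 462 and 315, 761 and 623, and 114 and 108, led in each population by Spp1, a secreted phosphoprotein of bone. Bglap had 0 reads in the GFP- Pdgfra- libraries. Over the alternatives 3 or 4 tendon markers, 2 to 4 cartilage markers and 6 osteoblast markers were called, with 2 cartilage markers without GFP- Pdgfra+ replicate 2. Fmod, Prelp, Kera, Aspn, Ogn and Chad were thus higher in the Pdgfra+ population with more tendon and cartilage marker RNA. Omd was higher in the Pdgfra+ population with more osteoblast marker RNA. Among Pdgfra- cells this did not hold for all of them. Tendon and cartilage sums were higher without GFP there, as were Fmod, Kera and Chad, but Aspn, Prelp and Ogn were higher with GFP. The osteoblast sums were higher with GFP, while no Omd difference was called. The part of those cell types in the differences was not tested.

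Of the remaining marker lists, 1 of 7 fibroblast genes was called between the Pdgfra+ populations (Ly6a, lower with GFP), against 5.35% of all genes, and 1 of 5 white blood cell genes (Lyz2, lower). Higher with GFP were 3 of 6 Schwann cell lineage genes (Sox10, Erbb3 and Ngfr), 2 of 5 muscle genes (Pax7 and Myf5) and 3 of 5 pericyte genes (Acta2, Myh11 and Mcam). None of the 5 endothelial or 5 erythroid genes was called by limma, edgeR or DESeq2, and 0 of them had an unadjusted p under 0.05. The calls of Ly6a, Lyz2, Ngfr, Myf5, Myh11 and Mcam ended in 3, 8, 10, 4, 8 and 1 of 19 alternatives, in each case including fits without a single library of the compared populations, while those of Sox10, Erbb3, Pax7 and Acta2 held in all 19.

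Most of the genes lie in 3 chromosomal clusters of relatives, and neighbours did not always move together. On chromosome 10 (build NCBIM37) Dcn (chr10:96942245-96980777), Lum (chr10:97028135-97035337) and Kera (chr10:97069817-97076322) follow each other on the plus strand with gaps of 47.4 and 34.5 kb, and Epyc lies 30.4 kb beyond Kera. Between the Pdgfra+ populations Kera fell with GFP, and Dcn and Lum were not called. On chromosome 13 Ecm2, Aspn (chr13:49639812-49662926), Omd (chr13:49678135-49687978) and Ogn (chr13:49703440-49719869) lie within 119.7 kb. Omd rose with GFP while Aspn and Ogn, 15.2 kb before it and 15.5 kb after it, fell, as did Ecm2. On chromosome 1 Prelp (chr1:135806881-135817991, minus strand) and Fmod (chr1:135933831-135944854, plus strand) are 116 kb apart, and both fell. Bgn (chrX:70728941-70741272) and Chad (chr11:94426361-94430441) lie alone. The genes of chromosome 13 sit inside Cenpp on the opposite strand and Chad inside Acsf2, sharing 0 exon bases. Prelp shares 350 exon bases with the transcript Gm15851 on the opposite strand, and their reads could not be told apart because the strand used in counting was not given.

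**Figure D3:**
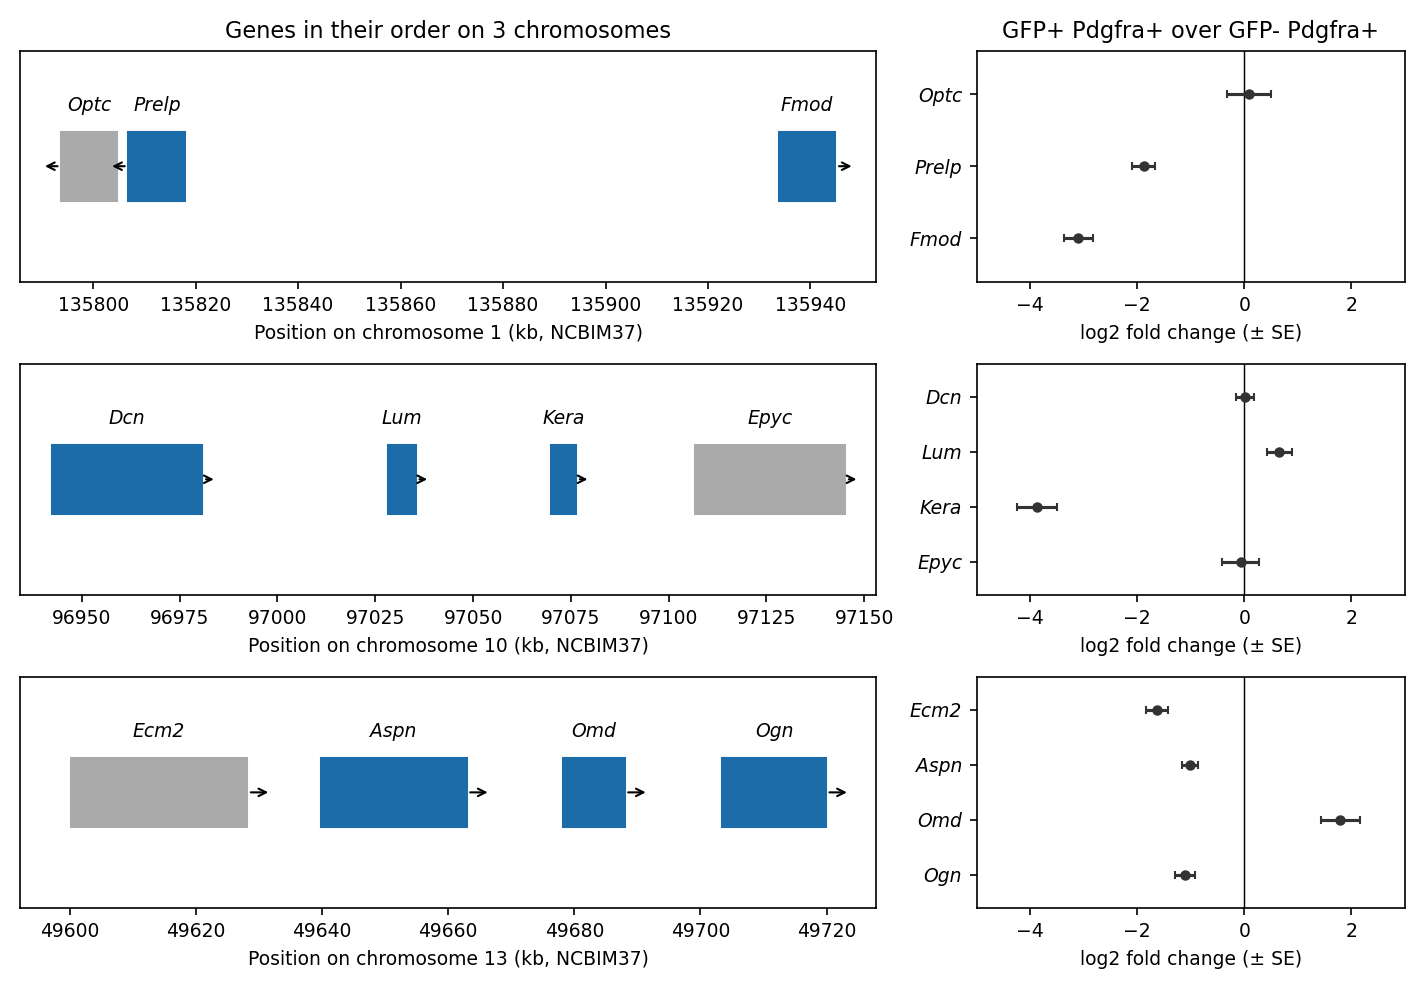
Positions of the clustered proteoglycan genes on chromosomes 1, 10 and 13 (kb, NCBIM37; arrows give the direction of transcription, blue the 10 genes and grey other relatives), with the log2 difference of GFP+ Pdgfra+ over GFP- Pdgfra+ cells ± SE beside each. On chromosome 13 Omd (1.80) lies between Aspn (-1.01) and Ogn (-1.11).

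Promoter sequence was at hand from RefSeq (build GRCm38.p6) for 8 of the 10 genes, all but Dcn and Lum. Those of the chromosome 13 neighbours, which moved in different directions, and of Fmod and Chad, which were among the genes with the largest differences, are shown 5′ to 3′ from 250 bases before the transcript start to 50 bases after it. Capitals mark matches, on either strand, to TATAAA (the TATA box), TGTGGT (a core bound by RUNX factors) or CAGATG (a form of the E-box). Aspn (chr13:49544193-49544492, plus strand) held TATAAA at bases 44 to 49 and, on the other strand, at 73 to 78. Omd (chr13:49582212-49582511, plus strand) held none of the 3 motifs. Ogn (chr13:49607765-49608064, plus strand) held TATAAA on both strands, at 22 to 27 and 24 to 29, which overlap, and TGTGGT on the other strand at 186 to 191. Fmod (chr1:134037004-134037303, plus strand) held CAGATG on the other strand at 62 to 67. Chad (chr11:94564797-94565096, plus strand) held TATAAA at 223 to 228, 28 bases before the start. Among 32851 promoters of this length, 13.6% held TATAAA, 16.8% TGTGGT and 17.2% CAGATG, so that a match describes the sequence and no more. Those of Bgn, Prelp and Kera held none of the 3.
Aspn promoter: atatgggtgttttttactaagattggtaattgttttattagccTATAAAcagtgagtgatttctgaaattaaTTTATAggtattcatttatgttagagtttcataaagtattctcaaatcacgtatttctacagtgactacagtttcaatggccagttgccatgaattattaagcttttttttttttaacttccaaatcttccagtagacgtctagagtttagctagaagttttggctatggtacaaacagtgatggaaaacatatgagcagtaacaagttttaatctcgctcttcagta
Omd promoter: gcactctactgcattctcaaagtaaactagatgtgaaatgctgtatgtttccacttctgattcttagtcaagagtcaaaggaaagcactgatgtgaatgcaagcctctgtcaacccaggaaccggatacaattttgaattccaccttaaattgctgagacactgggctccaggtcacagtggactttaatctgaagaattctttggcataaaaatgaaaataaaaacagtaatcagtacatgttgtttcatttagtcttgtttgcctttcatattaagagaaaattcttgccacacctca
Ogn promoter: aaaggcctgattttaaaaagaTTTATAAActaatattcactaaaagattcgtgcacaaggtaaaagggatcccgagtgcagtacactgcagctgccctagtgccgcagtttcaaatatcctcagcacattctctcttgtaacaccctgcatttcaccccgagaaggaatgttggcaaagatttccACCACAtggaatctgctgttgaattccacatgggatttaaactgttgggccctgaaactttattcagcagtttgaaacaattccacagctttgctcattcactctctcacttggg
Fmod promoter: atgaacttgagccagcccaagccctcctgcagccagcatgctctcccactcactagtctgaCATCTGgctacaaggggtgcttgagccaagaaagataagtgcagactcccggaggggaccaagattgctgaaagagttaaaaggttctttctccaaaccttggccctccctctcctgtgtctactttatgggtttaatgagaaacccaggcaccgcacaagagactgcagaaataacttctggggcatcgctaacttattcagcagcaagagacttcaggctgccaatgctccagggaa
Chad promoter: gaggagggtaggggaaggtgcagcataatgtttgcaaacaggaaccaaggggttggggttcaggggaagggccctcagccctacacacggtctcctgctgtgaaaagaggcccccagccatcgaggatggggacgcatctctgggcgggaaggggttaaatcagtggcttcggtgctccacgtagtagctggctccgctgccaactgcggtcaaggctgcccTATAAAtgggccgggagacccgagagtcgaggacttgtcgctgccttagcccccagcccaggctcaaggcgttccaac

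The members were also compared by their levels across the libraries. Over the 8 libraries, which fall in 4 populations, Pearson correlations of log2 levels between members ran from 0.182 (Omd with Chad) to 0.994 (Bgn with Aspn), and Fmod and Kera stood at 0.959. Each gene was also set against 9008 others with a mean of at least 10. The closest to Dcn were A430107O13Rik (r = 0.999), the microfibril protein Mfap5 (0.995) and Tmed3 (0.995). Bgn was closest to Emp1, the matrix protein Thbs2 and Islr (each 0.999), and Aspn to Cd109 (0.999), the fibril-associated collagen gene Col12a1 (0.998) and Dapk1 (0.998). Lum had Gpr133, Aff2 and Enpp1 (0.996 to 0.997), Fmod had Zfp185 (0.994), Pappa2 (0.986) and Prg4 (0.981), the lubricating proteoglycan of joints, and Prelp had Zmiz1, Ecm1 and Add3 (0.993 to 0.996). Among the closest to Kera were the tendon membrane protein Tnmd (0.976) and Fam63a (0.969), and the closest to Chad were Tsc22d4 (0.974), the cartilage matrix protein Comp (0.963) and Wwp2 (0.954). Omd was closest to Fkbp11 (0.991), Ostc (0.982) and Copb1 (0.975), genes of the secretory pathway, and Ogn to Zfp462 (0.999), Adamtsl4 (0.998) and Shisa2 (0.997). All these values rest on the same 8 libraries of 4 populations.

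Among 8 further relatives of the family, Ecm2 and Podnl1 were called between the Pdgfra+ populations, as were 5.35% of all genes. Ecm2, the neighbour of Aspn, averaged 87.9 in GFP+ Pdgfra+, 274 in GFP- Pdgfra+, 47.9 in GFP+ Pdgfra- and 21.1 in GFP- Pdgfra- cells. It was 3.12-fold lower with GFP in Pdgfra+ cells (log2 -1.63, limma adjusted p = 0.000605), and its GFP effects differed between the Pdgfra settings (log2 -2.75, adjusted p = 9.78e-06). Podnl1 averaged 21.7, 4.86, 4.24 and 1.03 in the same order, and was 4.46-fold higher with GFP in Pdgfra+ cells (log2 2.07, adjusted p = 0.0157). The Podnl1 call ended without GFP+ Pdgfra+ replicate 1 or replicate 2 or GFP- Pdgfra+ replicate 2, in a range from 0.00559 to 0.148. Its GFP- Pdgfra+ libraries were 7.19 and 2.52, and the log2 difference was 2.68 without the first and 1.46 without the second. Podn (31.7, 77.8, 2.28 and 3.34) was not called there (adjusted p = 0.0674), nor was Tsku (38.4, 40.1, 8.84 and 1.08) or Chadl (2.80, 1.36, 6.00 and 1.41). Epyc, Optc and Nyx were at most 2.44 in any library. With Pdgfra, 4 of the 8 rose in GFP+ cells and 4 in GFP- cells, where 24.2% and 59.7% of all genes were called. In Pdgfra- cells 5 were higher and 1 lower with GFP (53.7% of all genes called), and 3 of the 8 differed in their GFP effects (44.3% of all genes). Of these 3, the Epyc call (limma adjusted p = 0.0482) ended with replicate number as a block, and in 10 of 16 alternatives in all.

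The sugar chains are built and sulfated by enzymes of 4 further lists. Between the Pdgfra+ populations, where 5.35% of all genes were called, so were 1 of 8 genes for the linker that starts a chain (Xylt1, lower with GFP), 1 of 16 for chondroitin and dermatan sulfate (Chsy1, higher) and 2 of 7 for keratan sulfate (B3gnt7 higher and Chst5 lower), each with a median log2 difference between -0.05 and -0.02. Each of those 4 calls ended without at least 1 library of the compared populations. None of 8 genes for sulfate supply was called by limma, edgeR or DESeq2 (median 0.36), and none had an unadjusted p under 0.05. With Pdgfra, the chondroitin and dermatan sulfate list rose for 9 of 16 genes and fell for 3 in GFP+ cells (median 1.16), and rose for 11 and fell for 1 in GFP- cells (median 2.34). The linker list had 1 of 8 called in GFP+ cells and 4 in GFP- cells, the keratan sulfate list 4 and 5 of 7, and the sulfate list 3 and 4 of 8, against 24.2% and 59.7% of all genes. In GFP+ cells the 12 calls of the chondroitin and dermatan sulfate list became 7 without GFP+ Pdgfra- replicate 1, the 4 of the keratan sulfate list became 2 without GFP+ Pdgfra+ replicate 1 and 1 without GFP+ Pdgfra- replicate 2, and the 1 of the linker list became 2 without GFP+ Pdgfra- replicate 2.

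Other lists held partners of the core proteins. Of 9 measured proteases that process or cleave them and their enhancers, Mmp13 and Bmp1 were higher with GFP in Pdgfra+ cells, where 3.22% of all genes were. Mmp13, a collagenase, stood at 675 and 546 in GFP+ Pdgfra+ against 34.2 and 21.8 in GFP- Pdgfra+ cells, a 21.8-fold difference (log2 4.42, limma adjusted p = 9.32e-07) that was called in each of 19 alternatives. Bmp1, which removes the propeptides of Bgn and of collagen, averaged 320 ± 90.4 against 168 ± 19.4 (log2 0.90, adjusted p = 0.0315). The Bmp1 call ended without GFP+ Pdgfra+ replicate 1 and without either GFP- Pdgfra+ library (range 0.00190 to 0.246). With Pdgfra 7 of the 9 rose in GFP+ cells (median 2.29) and all 9 in GFP- cells (median 4.24), against 13.1% and 32.9% of all genes.

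Among 14 collagen genes and Lox, which encodes a collagen-crosslinking enzyme, 4 of 15 genes were higher and 5 lower with GFP in Pdgfra+ cells. Of all genes, 3.22% were higher and 2.13% lower. The 9 calls became 3 and 5 without GFP+ Pdgfra+ replicate 1 and replicate 2, and 3 and 4 without GFP- Pdgfra+ replicate 1 and replicate 2. Col1a1 averaged 44748 in GFP+ Pdgfra+ against 16096 in GFP- Pdgfra+ cells (log2 1.46, limma adjusted p = 0.000569) and Col1a2 29314 against 11406 (log2 1.35, adjusted p = 0.000645), and Col11a2 was 5.12-fold higher (log2 2.47, adjusted p = 0.00155). The Col11a2 difference was 1.80 without GFP- Pdgfra+ replicate 1 and 3.14 without replicate 2, and its call held in 19 alternatives. Col12a1, whose pattern was like that of Aspn, averaged 2619 against 4988 (log2 -0.93, adjusted p = 0.00714), and Col3a1 7459 against 11029 (log2 -0.56, adjusted p = 0.0184). The calls of Col12a1 and Col3a1 ended without any single library of the compared populations (up to 0.134 and 0.904 over the alternatives). The others called were Col11a1 (higher) and Col5a3, Col6a1 and Col6a3 (lower), named after their values were seen, and their calls ended in 3, 5, 5 and 6 of 19 alternatives, single libraries of the compared populations among them. With Pdgfra, all 15 genes of the list, Lox included, rose in GFP+ cells (median 2.90) and 13 in GFP- cells (median 5.51), against 13.1% and 32.9% of all genes. Of 11 growth factors and receptors that the core proteins bind, Tgfb1 was higher with GFP (41.9 ± 17.9 against 10.8 ± 0.300, log2 1.80, adjusted p = 0.00482, range 5.06e-05 to 0.0610) and Tgfb2 and Itga2 were lower. The Tgfb1 call ended without GFP+ Pdgfra+ replicate 1 or either GFP- Pdgfra+ library, and those of Tgfb2 and Itga2 without any single library of the compared populations. With Pdgfra 4 of the 11 rose and 3 fell in GFP+ cells, and 10 rose and 1 fell in GFP- cells, where 24.2% and 59.7% of all genes were called in either direction.

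In the Pdgfra- cells, where 30.1% of all genes were higher and 23.6% lower with GFP, the lists differed. Rises and falls numbered 9 and 1 of 16 for chondroitin and dermatan sulfate enzymes, 3 and 2 of 8 for the linker, 2 and 1 of 7 for keratan sulfate, 4 and 1 of 8 for sulfate supply, 7 and 2 of 9 for proteases, 12 and 1 of 15 for collagens and Lox, and 9 and 1 of 11 for growth factors and receptors. The 5 calls of the linker list became 3 without GFP+ Pdgfra- replicate 2 or GFP- Pdgfra- replicate 1. Of its 2 falls, 1 (limma adjusted p = 0.0467) ended with replicate number as a block, and in 12 of 18 alternatives in all.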

How the data were processed

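RNA-seq values of the 8 libraries were used as deposited. The authors trimmed reads with cutadapt, counted them with RSEM 1.17 on NCBIM37 transcripts and normalised them with limma's voom. The deposited values, in the unit signal, are linear: 0.5 was added to each read count before scaling to 1000000, and whole reads could be recovered for 100% of values (tolerance 0.05). limma 3.58.1 (R 4.3.3, eBayes with trend) was fitted to log2(value + 1) of all 8 libraries with 1 coefficient per population, 4 residual degrees of freedom and Benjamini-Hochberg adjustment over 15880 genes. Folds are ratios of mean values. Alternatives were the compared populations alone, a block for replicate number, no trend, quantile normalization, median centring, a pseudocount of 0.1, a filter (above 2 in at least 2 libraries, 14333 genes), voom, edgeR 4.0.16, DESeq2 1.42.0 and leaving out each library. After seeing the data, a fit without GFP- Pdgfra- cells was added. Where 1 library of a population was left, it was assumed to vary like the others. edgeR on the recovered reads called 893 genes between the Pdgfra+ populations. An exact permutation test of 2 against 2 libraries cannot go below p = 0.333 (two-sided). Libraries of the same replicate number were checked for pairing: their deviations correlated by 0.00433 to 0.0812, and no block was used in the main test. The libraries of a number may nonetheless share a pool of littermates, since the descriptions speak of sets of samples and Xist split by replicate number, so the block was run as an alternative. Named were the 10 genes, 8 relatives, Pdgfra, Nes, up to 4 genes of highest mean and up to 2 called genes of largest log2 difference per comparison in each other list, and the 3 genes most correlated with each member, of which 1 is not reported here. The 10 genes and all lists were chosen with earlier results of these data known. Lengths and positions came from GENCODE M1 (15849 of 15880 identifiers matched), using the longest transcript. Tables and plots were made in Python 3.11.15 (pandas 2.3.3, scipy 1.17.1, numpy 2.4.6, matplotlib 3.10.9). The descriptions give 2 biological replicates from pooled littermates, and name the bones differently (limb bones and scapulae, or long bones and sterna).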

Additional observations from a re-analysis of the deposited data

Results flagged for a closer look

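For 7 proteoglycan genes the effect of GFP differed between Pdgfra+ and Pdgfra- cells by the test of the difference itself, which 44.3% of all genes passed, given here as the log2 effect in Pdgfra+ cells minus that in Pdgfra- cells. It was -2.46 for Bgn, -2.95 for Aspn, -3.29 for Prelp and -3.92 for Ogn, each of which was lower with GFP among Pdgfra+ cells (Bgn not called there) and higher with GFP among Pdgfra- cells. For Omd it was 2.16, from a rise among Pdgfra+ cells and overlapping libraries among Pdgfra- cells. Lum gave -0.87 and Fmod -1.13, and these limma calls were the least steady. Each ended when any 1 of 6 libraries was left out, and the 6 were not the same for both genes. Marker lists also moved: 6 of 7 fibroblast (median -3.09), 5 of 5 pericyte (-2.79), 5 of 5 muscle (-4.06) and 4 of 6 Schwann cell lineage genes (-2.02) were called lower by the same test, and 5 of 5 erythroid (5.84) and 4 of 6 osteoblast genes (1.48) higher. Of the tendon markers 2 of 4 were lower (median -1.67), and of the cartilage markers 3 of 7 were higher and 1 lower (0.71). Those 4 cartilage calls became 2 without GFP+ Pdgfra- replicate 1, GFP- Pdgfra+ replicate 1 or GFP- Pdgfra- replicate 2. By DESeq2 the muscle count was 3, and the Schwann cell lineage and osteoblast counts were 2 each. Under median centring the osteoblast count was 6. Over all genes 19.1% were higher and 25.2% lower. The part of these cell types was not tested.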

How the results depend on the processing

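The count of 7 members called between the Pdgfra+ populations was 4 without the mean-variance trend, 3 to 8 when single libraries were left out, and 9 by voom. With replicate number as a block it was 8, through Lum (adjusted p = 0.0472), with 924 genes in all, and no other member's call changed. Values that turned were Dcn (-0.021 under median centring, and from -0.15 to 0.16 with a library or replicate number left out) and Bgn (0.021 under quantile normalization) between the Pdgfra+ populations, and for the difference between GFP effects, Kera (0.39 with pseudocount 0.1, 0.94 by voom, 1.54 by edgeR, 1.84 by DESeq2), Chad (from -0.43 to 1.58 without single libraries), and Dcn (0.030 without replicate number 1, -1.04 without 2); the cause was not tested. All genes called between the Pdgfra+ populations fell from 849 to 532 without the trend, and to 350, 517, 306 and 246 without GFP+ Pdgfra+ replicate 1 and 2 and GFP- Pdgfra+ replicate 1 and 2. Over GFP+ Pdgfra- cells 3848 became 2158 and 2411 without either GFP+ Pdgfra- library. The fit without the trend used all 8 libraries. Without the GFP- Pdgfra- population, 1126 genes were called between the Pdgfra+ populations, and the reason for these changes was not tested. Median centring moved the share of calls that were higher from 55.1% to 40.6% for GFP- Pdgfra+ and from 56.1% to 38.9% for GFP+ Pdgfra- over GFP- Pdgfra- cells, and from 43.1% to 59.7% for the difference between GFP effects. voom moved it from 60.2% to 49.0% between the Pdgfra+ populations. Over all comparisons 913 results of members were counted as the same, with direction and call kept where a test was run. Another 65 lost a call, 10 gained one, 10 tested results turned and 12 values with no test moved. The 913 also hold values with no test, from fits without a replicate number, among them the -0.15 of Dcn. Whether small differences at low read counts (Kera, Chad, Omd) could be resolved with 2 libraries per population was not tested.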

Other observations

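Replicate number followed Xist, the RNA made from the inactive X chromosome of females. It stood at 2.90, 8.95, 4.98 and 11.3 in the replicate 1 libraries of GFP+ Pdgfra+, GFP- Pdgfra+, GFP+ Pdgfra- and GFP- Pdgfra- cells, and at 868, 1379.7, 1051 and 1351 in their replicate 2 libraries. The populations were balanced in this respect, and X-linked Bgn differed little between replicates in 3 of the populations (66.2 and 106 in GFP- Pdgfra- cells). Chad was higher in replicate 2 in each population, only slightly in GFP+ Pdgfra+ cells (12.8 and 13.4, from 46 reads in both libraries). Col2a1, the main collagen of cartilage, was higher in replicate 2 in each population, at 175 and 280.4, 273 and 1498, 12.0 and 48.2, and 371 and 753 in the same order. Whether these belong together was not tested.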
